A study of Homo sapiens with 6 samples.

Results

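The interferon response and class I antigen presentation were read through 45 genes in 6 RNA sequencing libraries of pancreatic cancer cells, out of 27408 genes in the deposited table. The 45 were taken by gene symbol from a written list, with no measured value in the rule, and all 45 symbols were found. The list was chosen with earlier results of these data known, so counts over it are not independent of the data. The libraries came from MIA-PaCa2 and PANC-1, established lines grown from human pancreatic carcinomas, each carrying the LPCX control construct, overexpressing ESRP1, or overexpressing ESRP2, with no treatment, interferon included, named in the labels. ESRP1 and ESRP2 are epithelial splicing regulators, RNA-binding proteins that steer exon choice, and the series asks what they do in pancreatic cancer. There was 1 library for each of the 6 combinations, so there are no replicates within a line, and the labels do not say whether a derivative is a pool or a clone. Levels are TPM, relative transcript abundances corrected for length, summed per gene, and they are given in the order LPCX, ESRP1, ESRP2.

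Cells answer viral nucleic acid in steps. Cytoplasmic sensors such as DDX58 (RIG-I) and IFIH1 (MDA5) signal through the adaptor MAVS and the kinase TBK1 to turn on interferon genes. Secreted interferon then binds its receptor, and Janus kinases activate STAT proteins, among them STAT2, which joins IRF9 in the complex ISGF3 to switch on the interferon-stimulated genes, many of which block a step of viral replication. The same signal raises genes that cut proteins into peptides and load them on HLA class I molecules, so that T cells can see what a cell makes. ISGF3 binds the interferon-stimulated response element, and the response to interferon gamma runs through another element, called GAS.

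The letters of the response element were searched before the start sites of these genes, and 7 stretches are printed because they precede genes on which the line comparison turns. Sequences and positions are from RefSeq, build GRCh38.p14, written 5′ to 3′ on the strand of the gene. Each begins 250 bases before a RefSeq start and ends where an exon of that gene in GENCODE release 29 begins, or with a match that crosses that border. Capitals mark every match to GAAANNGAAA on either strand, with overlapping matches run together. They belong to ISG15 (chr1:1013247-1013422, plus strand), IFIT1 (chr10:89392373-89392545, plus strand), the upstream and downstream starts of IFIT3 (chr10:89327747-89327893 and chr10:89332279-89332487, plus strand), IFIH1 (chr2:162318696-162318934, minus strand), HERC5 (chr4:88456869-88457116, plus strand) and B2M (chr15:44711267-44711486, plus strand), and were chosen after the levels were seen. By GENCODE, the stretch of B2M also overlaps exons of its neighbour PATL2, and that of IFIH1 exons of its neighbour GCA.
ISG15: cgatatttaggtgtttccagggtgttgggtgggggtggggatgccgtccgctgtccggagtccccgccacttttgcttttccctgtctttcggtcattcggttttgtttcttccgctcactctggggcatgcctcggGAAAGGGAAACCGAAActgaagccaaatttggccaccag
IFIT1: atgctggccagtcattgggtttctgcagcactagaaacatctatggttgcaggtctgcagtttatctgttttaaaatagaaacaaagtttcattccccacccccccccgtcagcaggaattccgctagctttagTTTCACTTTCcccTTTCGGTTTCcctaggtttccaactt
IFIT3 upstream start: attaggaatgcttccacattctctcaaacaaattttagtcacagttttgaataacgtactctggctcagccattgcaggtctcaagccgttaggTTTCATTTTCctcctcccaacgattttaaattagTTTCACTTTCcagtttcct
IFIT3 downstream start: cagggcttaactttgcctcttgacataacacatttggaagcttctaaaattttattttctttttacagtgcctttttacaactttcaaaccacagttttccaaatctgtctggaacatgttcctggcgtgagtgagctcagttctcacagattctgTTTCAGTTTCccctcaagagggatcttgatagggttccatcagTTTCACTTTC
IFIH1: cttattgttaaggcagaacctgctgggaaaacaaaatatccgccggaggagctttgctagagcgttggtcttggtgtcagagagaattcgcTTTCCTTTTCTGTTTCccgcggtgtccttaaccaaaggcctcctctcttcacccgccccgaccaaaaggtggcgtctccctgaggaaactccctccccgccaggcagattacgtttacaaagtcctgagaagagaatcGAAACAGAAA
HERC5: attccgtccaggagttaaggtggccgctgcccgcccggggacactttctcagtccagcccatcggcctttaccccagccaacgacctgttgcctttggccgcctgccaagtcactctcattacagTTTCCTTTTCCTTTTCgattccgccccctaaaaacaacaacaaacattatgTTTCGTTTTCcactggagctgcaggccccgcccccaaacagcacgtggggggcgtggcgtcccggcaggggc
B2M: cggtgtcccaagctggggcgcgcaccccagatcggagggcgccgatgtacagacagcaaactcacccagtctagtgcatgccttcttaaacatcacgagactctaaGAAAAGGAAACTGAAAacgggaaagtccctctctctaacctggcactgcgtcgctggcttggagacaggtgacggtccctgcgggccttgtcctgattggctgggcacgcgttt
In the 6 genes the matches begin at most 159 bases before the start, as pairs in ISG15, IFIT1, B2M and before both starts of IFIT3, and as 3 matches in IFIH1 and HERC5.

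RefSeq windows were matched for 37 of the 45 genes, DDX58 under its current symbol RIGI. GAAANNGAAA occurred in the 250 bases before a start of 23 of the 37 (62.2%), against 3.02% of 35116 windows and 3.71% of 27305 genes. In 15 genes a window held at least 2 matches. The GAS letters TTCNNNGAA, searched on both strands, occurred in 12 of the 37 (32.4%), against 6.57% of all windows and 8.09% of all genes. Both patterns were present in 7 genes, and their matches overlapped in 3. The list holds known interferon response and class I genes, so these shares describe the list, and a match is a string of letters and not a binding site. The 8 genes with no window were IRF7, IFIT2, OAS2, OASL, MX2, TRIM22, IFITM2 and USP18.

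The constructs were visible in the libraries: ESRP1 stood at 367 and 491 TPM in the ESRP1 libraries of MIA-PaCa2 and PANC-1, against 0.26 TPM or less in the other 4. ESRP2 stood at 197 and 308 TPM in the ESRP2 libraries, and PANC-1 LPCX already held 34.8 TPM of it, against 0.0704 TPM in MIA-PaCa2 LPCX. A library held 10578 to 10932 genes at 5 TPM or more, and its number of reads is unknown. TPM come from bulk RNA, in which fewer cells of a kind and less RNA per cell cannot be told apart.

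PANC-1 carried more RNA of most of these genes than MIA-PaCa2, whichever construct was present. At 5 TPM or more stood 22 to 23 of the 45 in a MIA-PaCa2 library and 35 in each PANC-1 library, and their summed TPM was 1211 to 1277 in MIA-PaCa2 and 4578 to 4969 in PANC-1, of a total of 1000000. The median of the 45, taken with no filter, was 4.71 to 5.05 TPM in MIA-PaCa2 and 21.6 to 23.2 TPM in PANC-1. Genes at 5 TPM or more in a library had a median of 28.8 to 31.9 TPM. Because of that filter it is not a like measure for the 45. Testing used limma on log2 of TPM plus 1 with line and construct as terms, over the 11829 genes that reached 5 TPM in 2 or more libraries, and a gene was called at an adjusted p (Benjamini-Hochberg) of 0.05. Of the 36 genes tested, 32 were higher in PANC-1, 3 were lower and 1 was not called. Over all genes tested, 43.1% were called higher in PANC-1 and 35.6% lower, so a call by itself sets these lines apart for most genes.

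On the log2 scale the median difference, PANC-1 minus MIA-PaCa2, was 2.26 over the 36 and 0.08 over all genes tested. Called and at least 4-fold higher in PANC-1 were 20 of the 36, against 7.67% of all genes tested, and called and at least 4-fold lower were 2, against 4.24%. The filter was passed through PANC-1 only by 12 of the 36: IFIH1, DDX60, IRF7, OAS2, RSAD2, ISG20, HERC5, PARP9, PARP14, IFI44, PSMB8 and PSMB9. IFI16 passed it through MIA-PaCa2 only. For these 12 and IFI16 the filter fixed the direction of the line test, so their tests are given below for their levels. The 23 that reached 5 TPM in both lines were therefore counted alone. Of these, 20 were called higher (40.7% of all such genes), 2 lower (34.6%), 11 were at least 4-fold higher (2.58%) and 1 at least 4-fold lower (1.29%). With no filter on level, all 45 could be fitted, and 35 were higher, 3 lower and 7 not called. The PANC-1 libraries all lay above the MIA-PaCa2 libraries for 32 of the 36, all below for 3, and overlapped for IFIT5; over all genes with 5 TPM in some library these shares were 42.6% above and 36.2% below. The 3 libraries of a line are derivatives of that line and are not separate lines, and the labels name no separate cultures, so p-values measure the spread between these libraries, which may be technical, and speak of these 2 lines alone.

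**Figure D1:**
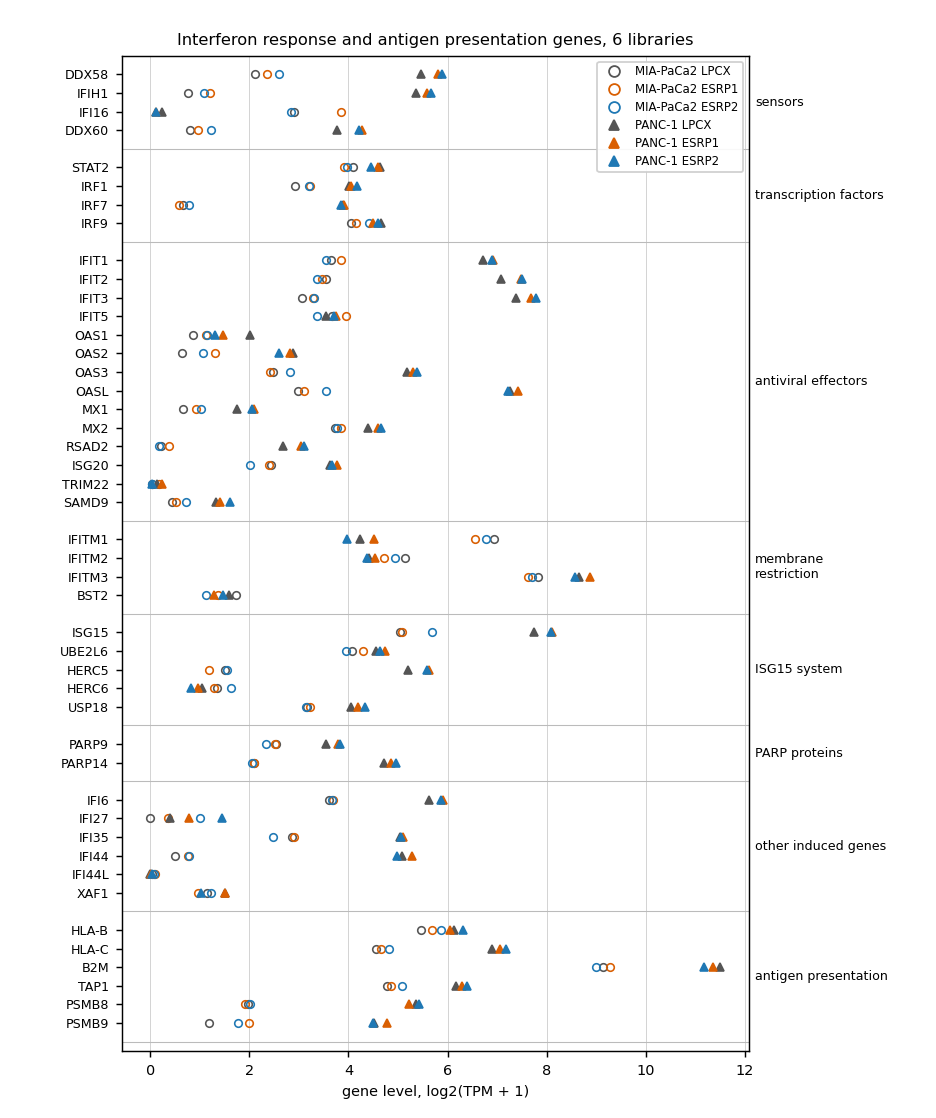
Level of each of the 45 genes in the 6 libraries, as log2 of TPM plus 1 on the horizontal axis, with genes in rows grouped by role; open circles are MIA-PaCa2, filled triangles PANC-1, and colours give the construct. In 35 rows the 3 triangles lie to the right of the 3 circles, in 5 to the left, and in 5 they overlap.

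Among the nucleic acid sensors, 3 of 4 were higher in PANC-1 and 1 was lower, against 43.1% and 35.6% of all genes tested. The filter fixed the direction of IFIH1, DDX60 and IFI16, so only DDX58 was free to go either way. IFIH1, which senses long double-stranded RNA, stood at 0.689, 1.31 and 1.13 TPM in MIA-PaCa2 and 40.2, 47.3 and 50.1 TPM in PANC-1. The lines did not overlap, and the means differed 44-fold (log2 difference 4.53, SE 0.091, limma adjusted p = 2.0e-06). DDX58, the sensor of RNA with a 5′ triphosphate, gave 3.33, 4.12 and 5.05 TPM against 42.8, 54.7 and 58.2 TPM, again with every PANC-1 library above every MIA-PaCa2 library (log2 difference 3.36, SE 0.074, limma adjusted p = 2.4e-06). DDX60, a helicase related to these sensors, stood at 0.734, 0.962 and 1.33 TPM and 12.7, 18.2 and 17.7 TPM (log2 difference 3.09, SE 0.12, limma adjusted p = 9.3e-06). IFI16, a nuclear and cytoplasmic sensor of DNA, went the other way. It stood at 6.51, 13.4 and 6.15 TPM in MIA-PaCa2 and 0.172, 0.0919 and 0.0923 TPM in PANC-1 (log2 difference -3.04, SE 0.24, limma adjusted p = 1.2e-04). The MIA-PaCa2 ESRP1 library was the highest for this gene, and without any 1 library its difference ran from -3.21 to -2.69.

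All 4 transcription factors were higher in PANC-1, against 43.1% of all genes tested, IRF7 by far the most. The filter fixed the direction of IRF7. IRF7, the factor that drives type I interferon genes and is itself induced by interferon, stood at 0.586, 0.494 and 0.719 TPM in MIA-PaCa2 and 13.7, 14 and 13.4 TPM in PANC-1 (log2 difference 3.20, SE 0.12, limma adjusted p = 8.5e-06). Its libraries were nearly level within each line. STAT2 stood at 16, 14.1 and 14.7 TPM and 23.8, 23.2 and 21 TPM (log2 difference 0.57, SE 0.074, limma adjusted p = 8.5e-04), and its partner IRF9 at 15.7, 16.8 and 20.3 TPM and 24.1, 21.7 and 23.2 TPM (log2 difference 0.37, SE 0.10, limma adjusted p = 0.014). These 2 subunits of ISGF3 were expressed well in both lines, with no overlap but with a small gap. The call of IRF9 was lost when any of 4 libraries was left out, both LPCX and both ESRP1 libraries, with an adjusted p of 0.0505 to 0.0712. IRF1, a factor that acts with interferon gamma on class I genes, stood at 6.63, 8.39 and 8.22 TPM and 15.1, 15.6 and 17 TPM (log2 difference 0.95, SE 0.088, limma adjusted p = 2.1e-04).

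The antiviral effectors held 14 genes, of which 10 were tested, 9 were higher in PANC-1 and 1 was not called. Over all genes tested 43.1% were higher, and the filter fixed the direction of OAS2, RSAD2 and ISG20. The 4 IFIT genes lie side by side on chromosome 10 (IFIT2 from 89302046, IFIT3 from 89327997, IFIT1 from 89392623 and IFIT5 from 89414568 to 89420997, GRCh38.p14), and the proteins bind foreign RNA and hinder its translation. IFIT3 stood at 7.39, 8.79 and 8.83 TPM in MIA-PaCa2 and 165, 204 and 218 TPM in PANC-1, a 23.5-fold difference of means with no overlap (log2 difference 4.39, SE 0.064, limma adjusted p = 1.1e-06). IFIT2 stood at 10.6, 10 and 9.24 TPM and 135, 178 and 181 TPM (log2 difference 3.91, SE 0.13, limma adjusted p = 6.0e-06). IFIT1 stood at 11.5, 13.5 and 10.6 TPM and 103, 119 and 118 TPM (log2 difference 3.15, SE 0.083, limma adjusted p = 3.7e-06). IFIT5, the last of the cluster, did not share the difference of its neighbours: 11.7, 14.4 and 9.29 TPM in MIA-PaCa2 against 10.7, 12.5 and 12.1 TPM in PANC-1, with overlapping libraries (log2 difference 0.015, SE 0.13, limma adjusted p = 0.92).

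The OAS proteins are sensors that make the messenger oligoadenylate, which wakes the RNA-cutting enzyme RNase L. OASL, the family member that has lost this activity and instead aids DDX58, was the most abundant of them, at 6.91, 7.55 and 10.8 TPM in MIA-PaCa2 and 153, 170.0 and 148 TPM in PANC-1 (log2 difference 4.09, SE 0.14, limma adjusted p = 7.4e-06). OAS3 stood at 4.55, 4.37 and 6.1 TPM and 35.5, 38.5 and 40.7 TPM (log2 difference 2.72, SE 0.09, limma adjusted p = 6.4e-06). OAS2 stood at 0.55, 1.49 and 1.08 TPM and 6.42, 6.11 and 5.07 TPM (log2 difference 1.77, SE 0.19, limma adjusted p = 3.9e-04). In each of the 3 the lines did not overlap. OAS1 stayed under 5 TPM in all 6 libraries and was not called without the filter (log2 difference 0.56). For the dynamin-like MX proteins, MX2, which acts at the nuclear pore against HIV, stood at 12.3, 13.5 and 12.6 TPM and 20.1, 23.3 and 24.2 TPM (log2 difference 0.77, SE 0.078, limma adjusted p = 3.1e-04), whereas MX1, the influenza restriction factor, stood at 0.592, 0.893 and 1.04 TPM and 2.36, 3.27 and 3.17 TPM. Both were higher in PANC-1, MX1 by the fit with no filter (log2 difference 1.09, limma adjusted p = 0.0021).

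RSAD2 (viperin), which makes a chain-terminating nucleotide, stood at 0.167, 0.298 and 0.138 TPM in MIA-PaCa2 and 5.39, 7.29 and 7.56 TPM in PANC-1 (log2 difference 2.68, SE 0.15, limma adjusted p = 3.6e-05). In MIA-PaCa2 it was close to 0, so its difference on the log2 of TPM plus 1 scale understates the 33.5-fold ratio of means. ISG20, an RNA exonuclease, stood at 4.45, 4.28 and 3.03 TPM and 11.3, 12.6 and 11.7 TPM (log2 difference 1.40, SE 0.12, limma adjusted p = 1.6e-04). SAMD9, a restriction factor for poxviruses, stayed between 0.35 and 2.05 TPM and was higher in PANC-1 in the fit with no filter (log2 difference 0.89, limma adjusted p = 0.0019). TRIM22, a ubiquitin ligase, reached at most 0.188 TPM.

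Of the 4 membrane restriction proteins 3 were tested, and 1 was higher in PANC-1 and 2 were lower. Over all genes tested 43.1% were higher and 35.6% lower. IFITM proteins sit in membranes and hinder fusion of viruses with the cell, and IFITM2, IFITM1 and IFITM3 lie within chromosome 11, 307816 to 320860 (GRCh38.p14). IFITM1, found mainly at the cell surface, stood at 122, 93 and 109 TPM in MIA-PaCa2 and 17.9, 21.8 and 14.7 TPM in PANC-1, so that MIA-PaCa2 was 5.94-fold higher without overlap (log2 difference -2.52, SE 0.16, limma adjusted p = 4.7e-05). IFITM3, found mainly in endosomes, showed the reverse order, at 226, 196 and 206 TPM and 400.0, 465 and 379 TPM (log2 difference 0.98, SE 0.10, limma adjusted p = 2.7e-04). IFITM2 stood at 34.3, 25.3 and 29.8 TPM and 20.3, 22.1 and 19.7 TPM (log2 difference -0.50, SE 0.12, limma adjusted p = 0.0094). The 3 genes are close copies, and the quantification can move reads between them, so the split between them is uncertain. BST2 (tetherin), which holds budding virions on the cell, stayed between 1.18 and 2.31 TPM, with overlapping lines.

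In the ISG15 system, a ubiquitin-like tag with its own enzymes, all 4 tested genes were higher in PANC-1. Over all genes tested 43.1% were higher, and the filter fixed the direction of HERC5. ISG15 itself stood at 31.7, 32.9 and 50.4 TPM in MIA-PaCa2 and 213, 275 and 271 TPM in PANC-1 (log2 difference 2.72, SE 0.12, limma adjusted p = 1.6e-05). HERC5, the ligase that attaches it, stood at 1.86, 1.27 and 1.91 TPM and 35.7, 48.6 and 46.8 TPM, a 26-fold difference of means (log2 difference 4.06, SE 0.16, limma adjusted p = 1.0e-05). UBE2L6, the conjugating enzyme, stood at 15.8, 18.7 and 14.5 TPM and 22.6, 25.8 and 23.9 TPM (log2 difference 0.54, SE 0.078, limma adjusted p = 0.0013). USP18, which removes the tag and restrains the type I receptor, stood at 7.98, 8.36 and 7.82 TPM and 15.6, 17.4 and 19.2 TPM (log2 difference 1.02, SE 0.092, limma adjusted p = 2.0e-04). The gap was therefore wide for the ligase and the tag and narrow for the conjugating enzyme. HERC6, the gene next to HERC5, had all MIA-PaCa2 libraries above PANC-1 at 0.78 to 2.08 TPM, without a call in the fit with no filter (log2 difference -0.47, limma adjusted p = 0.057).

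PARP14, a mono-ADP-ribosyltransferase, stood at 3.27, 3.29 and 3.18 TPM in MIA-PaCa2 and 25.2, 27.9 and 29.9 TPM in PANC-1 (log2 difference 2.75, SE 0.091, limma adjusted p = 6.4e-06). PARP9, which works in a pair with DTX3L, stood at 4.83, 4.71 and 4.06 TPM and 10.7, 12.8 and 13.2 TPM (log2 difference 1.26, SE 0.12, limma adjusted p = 2.3e-04). Of the 6 other induced genes, 3 were tested and all 3 were higher in PANC-1, against 43.1% of all genes tested. The filter fixed the direction of IFI44, as it did for PARP14 and PARP9. IFI44 stood at 0.405, 0.707 and 0.719 TPM and 33, 37.7 and 30.5 TPM, the widest ratio of means in favour of PANC-1 at 55.3-fold (log2 difference 4.43, SE 0.12, limma adjusted p = 3.6e-06). IFI6, a protein of the endoplasmic reticulum that limits flavivirus replication, stood at 11.2, 11.9 and 11.7 TPM and 48.3, 59 and 57.1 TPM (log2 difference 2.14, SE 0.072, limma adjusted p = 6.8e-06). IFI35, which binds NMI, stood at 6.23, 6.43 and 4.58 TPM and 31.8, 33.2 and 32.3 TPM (log2 difference 2.32, SE 0.11, limma adjusted p = 1.7e-05). IFI44L, which neighbours IFI44 on chromosome 1, was nearly silent in every library, with at most 0.068 TPM, unlike its neighbour. XAF1 and IFI27 reached at most 1.86 and 1.73 TPM, with overlapping lines, and the fit with no filter called IFI27 higher in PANC-1 (log2 difference 0.42, limma adjusted p = 0.0088).

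**Figure D2:**
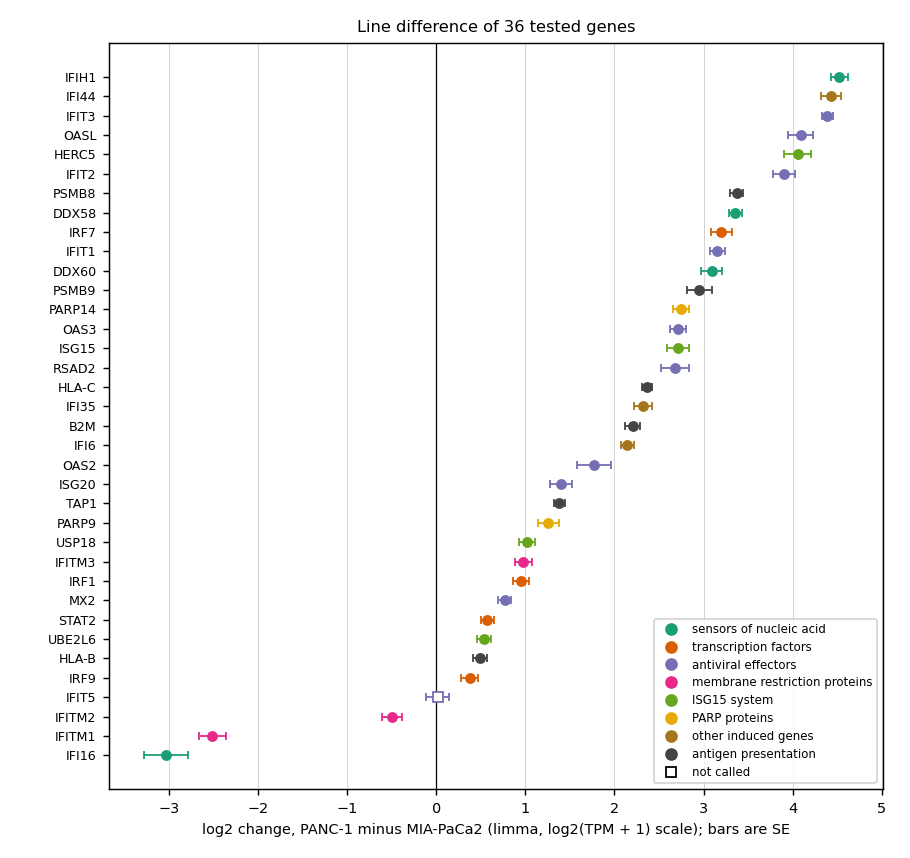
Difference between the lines for the 36 tested genes, PANC-1 minus MIA-PaCa2, on the log2 of TPM plus 1 scale, with bars of 1 SE from limma and colours by role. IFIH1 at 4.53 and IFI44 at 4.43 are at the top, and IFITM1 at -2.52 and IFI16 at -3.04 at the bottom. The open square is IFIT5, which was not called. IFIH1 and IFI44 reached 5 TPM in PANC-1 only and IFI16 in MIA-PaCa2 only, so the filter fixed their direction.

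All 6 class I presentation genes were higher in PANC-1, the immunoproteasome subunits most and HLA-B least. Over all genes tested 43.1% were higher, and the filter fixed the direction of the subunits PSMB8 and PSMB9. B2M, the light chain of every class I molecule, was the most abundant gene of the list at 560.1, 621 and 506 TPM in MIA-PaCa2 and 2899, 2606 and 2293 TPM in PANC-1 (log2 difference 2.20, SE 0.082, limma adjusted p = 9.1e-06). Every PANC-1 library lay above every MIA-PaCa2 library, and the means differed 4.62-fold. HLA-C, a class I heavy chain, stood at 22.5, 24.3 and 27.1 TPM and 117, 133 and 143 TPM (log2 difference 2.37, SE 0.056, limma adjusted p = 2.8e-06), and HLA-B at 43.4, 50.4 and 57.7 TPM and 69.3, 65 and 78.6 TPM (log2 difference 0.49, SE 0.077, limma adjusted p = 0.002). Heavy chain genes are near copies of each other with many alleles, so the quantification can split reads between them, and their levels are uncertain. TAP1, a chain of the peptide transporter, stood at 26.4, 27.9 and 32.6 TPM and 70.8, 77.5 and 82.8 TPM (log2 difference 1.38, SE 0.06, limma adjusted p = 1.5e-05). PSMB8 and PSMB9, catalytic subunits of the immunoproteasome, flank TAP1 on chromosome 6 (32840717 to 32859851, GRCh38.p14). PSMB8 stood at 2.93, 2.78 and 3.02 TPM and 40.2, 36.3 and 42.1 TPM (log2 difference 3.37, SE 0.077, limma adjusted p = 2.5e-06). PSMB9 stood at 1.28, 2.97 and 2.41 TPM and 21.9, 26.5 and 21.6 TPM (log2 difference 2.95, SE 0.14, limma adjusted p = 2.1e-05). Both subunits were thus at 3.02 TPM or less in every MIA-PaCa2 library and at 21.6 TPM or more in every PANC-1 library, whereas TAP1 between them was at 26.4 TPM or more throughout.

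Of 16 further class I genes 13 were tested, and 10 were higher in PANC-1 and 1, TAPBPL, was lower (log2 difference -0.58). Over all genes tested 43.1% were higher and 35.6% lower. The trimming peptidases ERAP1 and ERAP2 had log2 differences of 1.47 and 1.64, TAP2, the other chain of the transporter, 0.96, and tapasin (TAPBP) 0.88. ERAP2 reached 5 TPM in PANC-1 only, so the filter fixed the direction of its test. The third immunoproteasome subunit, PSMB10, was present in both lines and differed by 0.63. The constitutive subunits that the immunoproteasome replaces went the other way or were not called: PSMB6 at -0.54 and PSMB7 at -0.47 were lower in PANC-1, and PSMB5 at -0.18 was not called. None of 10 class II genes reached 5 TPM in any library. NLRC5, the class I transactivator, stood at 1.74 to 2.47 TPM and was not tested.

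Interferon ligands differed between the lines as well. Of 11 interferon genes in the table, 3 were tested, the type III interferons IFNL1, IFNL2 and IFNL3, which epithelial cells release. All 3 reached 5 TPM in PANC-1 only, so the filter fixed the direction of these tests and they are given for their levels. IFNL1 stood at 0.14, 0.252 and 0.415 TPM in MIA-PaCa2 and 23.5, 20.5 and 26.9 TPM in PANC-1 (log2 difference 4.28, SE 0.12, limma adjusted p = 3.8e-06). IFNL2 stood at 0, 0.787 and 0.523 TPM and 11.2, 12.2 and 11.7 TPM, and IFNL3 at 0.223, 1.2 and 0 TPM and 14, 12 and 14.3 TPM, 2 near-identical copies whose reads may be split (log2 differences 3.19 and 3.37). The 3 genes were close to 0 in MIA-PaCa2 and at 11 TPM or more in PANC-1. Among type I genes, IFNA1, IFNA2, IFNA5 and IFNK were listed at 0 in all 6 libraries, as was IFNG. IFNB1 was listed at 0 in 4 libraries and at 0.12 and 0.25 TPM in PANC-1 ESRP1 and ESRP2. IFNW1 was listed at 0 in MIA-PaCa2 and stood at 3.18, 2.2 and 2.75 TPM in PANC-1.

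**Figure D3:**
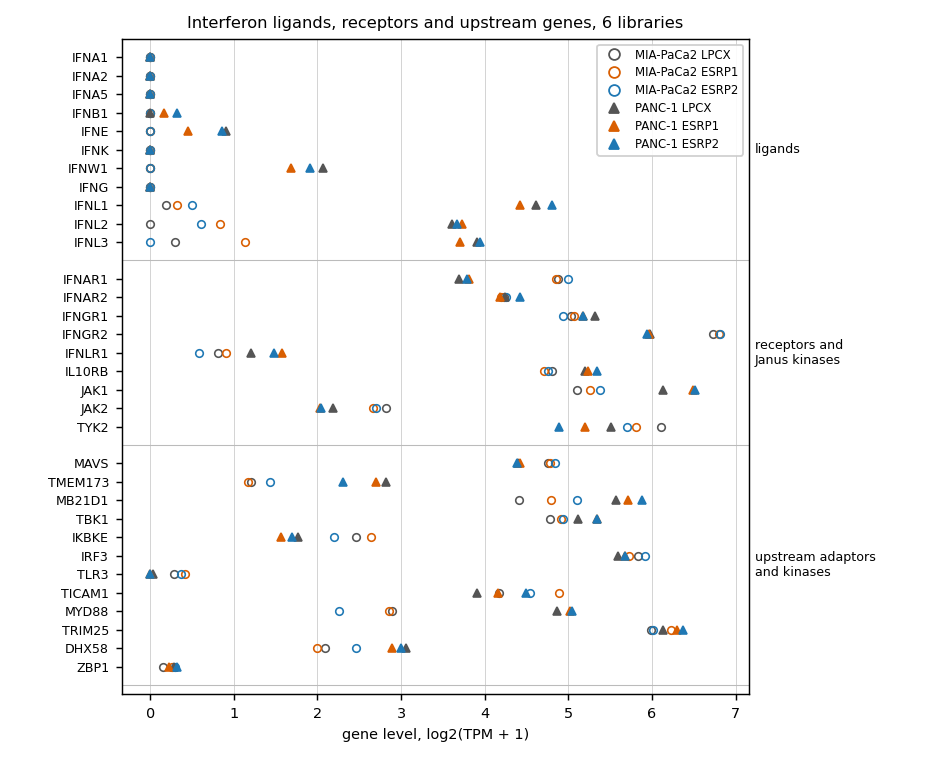
Level of interferon ligands, receptors with Janus kinases, and upstream adaptors and kinases in the 6 libraries, as log2 of TPM plus 1, with the same symbols as the plot of the 45 genes. IFNL1, IFNL2 and IFNL3 sit near 0 in MIA-PaCa2 and at 11 TPM or more in PANC-1, whereas receptors and adaptors lie closer together.

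Receptors and kinases showed no common direction. Of 8 tested, 3 were higher in PANC-1 and 4 lower, against 43.1% and 35.6% of all genes tested. IFNAR1, a chain of the type I receptor, stood at 28.3, 27.9 and 30.9 TPM in MIA-PaCa2 and 12, 13.1 and 12.8 TPM in PANC-1 and was lower there (log2 difference -1.14, SE 0.072, limma adjusted p = 5.0e-05). Its partner IFNAR2 was not called, at 17.7, 17.4 and 18.1 TPM and 18, 17.1 and 20.5 TPM (log2 difference 0.057, SE 0.074, limma adjusted p = 0.51). IL10RB, shared by the type III receptor, was higher in PANC-1 (log2 difference 0.51), and its specific partner IFNLR1 stayed at 0.495 to 1.98 TPM. JAK1 was higher (1.13), and TYK2 and JAK2 lower (-0.67 and -0.64). JAK2 reached 5 TPM in MIA-PaCa2 only, so the filter fixed the direction of its test. Upstream of interferon 9 of 12 genes were tested, with 5 higher and 1 lower, against the same 43.1% and 35.6%. MYD88, the adaptor of Toll-like receptors, stood at 6.42, 6.26 and 3.79 TPM and 28.2, 31.4 and 32 TPM (log2 difference 2.31, SE 0.16, limma adjusted p = 8.0e-05). TMEM173 (STING) stood at 1.31, 1.25 and 1.69 TPM and 6.06, 5.52 and 3.94 TPM (log2 difference 1.34, SE 0.18, limma adjusted p = 0.0011). TMEM173 reached 5 TPM in PANC-1 only, so the filter fixed the direction of its test. MAVS was lower in PANC-1 (log2 difference -0.39).

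A further 25 interferon-induced genes were divided. Of the 19 tested, 11 were higher in PANC-1 and 6 lower, against 43.1% and 35.6% of all genes tested. Their median log2 difference was 0.53, against 2.26 for the 36, and both sets include genes whose direction the filter fixed. Among the higher were CMPK2, PLSCR1, PARP10 and TRIM21 (log2 differences 2.70, 2.62, 2.36 and 2.02, limma). GBP2, a guanylate-binding GTPase, was lower (6.06, 7 and 3.37 TPM against 0.387, 0.334 and 0.276 TPM, log2 difference -2.24, SE 0.20, limma adjusted p = 1.8e-04), as were TRIM14, EIF2AK2 (PKR), SP110, ADAR and SAMHD1 (log2 differences -1.13, -0.84, -0.54, -0.42 and -0.39). Of 7 negative regulators 6 were tested, and SOCS3 and PTPN6 were higher in PANC-1 (log2 differences 2.83 and 2.87) and PTPN1, PTPN2 and PTPN11 lower. CMPK2, PARP10 and PTPN6 reached 5 TPM in PANC-1 only and GBP2 in MIA-PaCa2 only, so the filter fixed the direction of these tests.

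The line differences were also set beside the letters before the start sites. The 18 tested genes with GAAANNGAAA before a start had a median log2 difference of 2.70, and the 11 tested genes with a window and no match 0.95. Over all other tested genes the medians were 0.13 for 253 genes with a match and 0.08 for 8480 without. IFIT5 had a pair of matches and no called difference, and IFITM1 had a match and was lower in PANC-1. No match to these letters was found in the windows of DDX58, HLA-C, PSMB8 and PSMB9, which were higher in PANC-1. The letters allow a single spacing, and the DDX58 window holds gaaacgaaa, with a shorter spacer. The windows also stop at 250 bases, so no match does not show that a response element is absent. Of the genes with a match, IFIH1, DDX60, RSAD2, ISG20, HERC5, PARP9, PARP14 and IFI44 reached 5 TPM in PANC-1 only. Of those without, PSMB8 and PSMB9 did so, and IFI16 reached it in MIA-PaCa2 only. The filter fixed the direction of these genes, so the medians are a description with no test.

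Markers of other cells were read as a check of the cultures. Of 8 leukocyte markers 1 was tested, CD68, a lysosomal protein that is also made by tumour cells, which was higher in PANC-1 (23.3, 23.3 and 20.5 TPM against 295, 315 and 364 TPM). The 8 summed to 21.7 to 25.7 TPM in MIA-PaCa2 and 296 to 365 TPM in PANC-1, nearly all of it CD68. PTPRC, CD3E and MS4A1 stood at 0.56 TPM or less in every library, so the defining leukocyte markers were at or near 0 in both lines. Among 7 carcinoma epithelium markers, 6 were tested, KRT8 stood at 684 to 2223 TPM and KRT18 at 679.8 to 1747 TPM, and EPCAM, CDH1, KRT19 and MUC1 were higher in PANC-1 with KRT8 and KRT18 lower. Of 6 fibroblast markers COL1A2 was at 122 to 132 TPM in MIA-PaCa2 and COL1A1 at 66.4 to 108 TPM in PANC-1, with DCN and LUM at 0.082 TPM or less.

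Differences between constructs were small beside those between the lines. Across both lines, ESRP1 against LPCX gave no call among the 36 genes in limma, with 4 at an unadjusted p under 0.05, and ESRP2 against LPCX gave none, with 8 at an unadjusted p under 0.05. Over all 11829 genes tested, ESRP1 gave 1 gene higher (0.00845%) and none lower, with 820 at an unadjusted p under 0.05, and ESRP2 gave 1 higher and 1 lower (0.00845% each), with 1634 at an unadjusted p under 0.05. ESRP2 against ESRP1 gave no call among the 36 and none at an unadjusted p under 0.05. The model has 2 residual degrees of freedom. Its spread mixes noise of single libraries with any difference of construct effects between the 2 lines, and these cannot be told apart. A call missed at this size does not show that a gene was left alone. Both ESRP comparisons use the same LPCX libraries, so their values stand side by side and are not 2 independent readings.

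The 4 genes at an unadjusted p under 0.05 for ESRP1 had positive estimates. DDX58 differed by 0.29 (SE 0.09), IFIH1 by 0.34 (SE 0.11), IFIT3 by 0.26 (SE 0.078) and PSMB9 by 0.53 (SE 0.17) on the log2 scale, each with a limma adjusted p of 0.66. For ESRP2 the 8 were DDX58 (0.46, SE 0.09), ISG15 (0.50, SE 0.15), DDX60 (0.44, SE 0.14), IFIH1 (0.32, SE 0.11), IFIT3 (0.31, SE 0.078), HLA-B (0.29, SE 0.095), HLA-C (0.27, SE 0.069) and TAP1 (0.26, SE 0.073), with limma adjusted p between 0.33 and 0.34. Single libraries moved 3 of these values by over 1.5 times. The PSMB9 value for ESRP1 became 0.25 without MIA-PaCa2 LPCX and 0.81 without PANC-1 LPCX. For ESRP2, ISG15 became 0.27 without MIA-PaCa2 ESRP2, and HLA-B became 0.16 without MIA-PaCa2 LPCX. Both ESRP libraries lay above the LPCX library in both lines for DDX58, IFIH1, IFIT3, DDX60, ISG15, HLA-C and TAP1. These genes were picked by p in a model whose spread includes differences between the lines. That choice favours genes that agree between the lines, so their agreement is no separate support. The share of all genes with this pattern was not counted. For HLA-B the ESRP1 library of PANC-1 lay below LPCX. Estimates were positive for 29 of the 36 genes with ESRP1 (80.6%) and for 26 with ESRP2 (72.2%), against 68.3% and 65.1% of all genes tested, and the medians were 0.14 and 0.12 against 0.06 and 0.06.

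Within a line no gene of the list reached 2-fold in any of the 4 comparisons. At 5 TPM or more in either library, 22 and 24 genes were compared in MIA-PaCa2 for ESRP1 and ESRP2, and 35 and 35 in PANC-1. Of all genes compared, 0.538%, 0.808%, 0.368% and 0.377% were 2-fold higher in these 4 comparisons, and 0.742%, 0.808%, 1.14% and 1.58% 2-fold lower. Of the genes of the list so compared, 2 reached 1.5-fold, both in MIA-PaCa2. They were IFI16 with ESRP1 (log2 ratio 0.94) and ISG15 with ESRP2 (log2 ratio 0.65), against 1.27% and 1.96% of all genes. Neither kept its size in PANC-1, where IFI16 was at or under 0.17 TPM and ISG15 gave a log2 ratio of 0.35. In PANC-1 1.05% and 1.13% of genes were 1.5-fold higher with ESRP1 and ESRP2, and 1.5-fold lower were 1.65% and 2.02% in MIA-PaCa2, against 2.19% and 3.26% in PANC-1.

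In MIA-PaCa2 the ratios to LPCX ran from -0.42 for IFITM2 to 0.94 for IFI16 with ESRP1, with a median of 0.10, and from -0.37 for IFI35 to 0.65 for ISG15 with ESRP2, with a median of 0.00. In PANC-1 they ran from -0.15 for B2M to 0.49 for DDX60 with ESRP1 and from -0.34 to 0.45 for the same genes with ESRP2, both with a median of 0.18. The medians of all genes compared were 0.04, 0.05, 0.09 and 0.10 in this order. B2M stood highest in the LPCX library of PANC-1 and lowest in the ESRP2 libraries of both lines. By role, medians in PANC-1 with ESRP1 and ESRP2 were highest for the sensors, at 0.35 and 0.43 over 3 genes. They were 0.22 and -0.08 for 3 membrane restriction proteins, -0.004 and -0.044 for 4 transcription factors, and 0.02 and 0.12 for 6 antigen presentation genes. All 3 IFITM genes lay below LPCX in both ESRP libraries of MIA-PaCa2 and in PANC-1 ESRP2, and above it in PANC-1 ESRP1. Reads can move between these close copies, so they are not 3 separate readings.

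**Figure D4:**
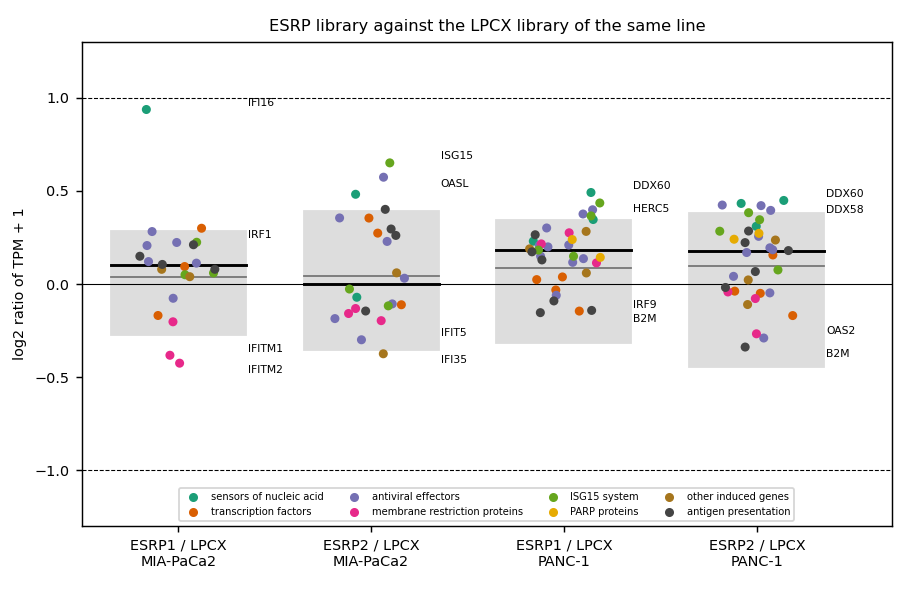
Log2 ratio of TPM plus 1 of each ESRP library to the LPCX library of its line, for genes of the list with at least 5 TPM in either library, 1 point per gene coloured by role, with the genes at the ends named at the right of their column. Black bars are the medians of the list, and grey bars and boxes the median and the 5th to 95th percentile of all genes compared. Dashed lines mark 2-fold, which none of the points reached.

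The MIA-PaCa2 ESRP1 library, in which IFI16 was highest and PSMB9 stood above its LPCX library (a log2 ratio of 0.80, at under 5 TPM in both), also held traces of transcripts that mark blood cells. PTPRC stood at 0.56 TPM, AIF1 at 0.52, HLA-DRA at 1.64 and CD74 at 3.4 TPM, against at most 0.08, 0.19, 0.24 and 0.24 TPM in the other MIA-PaCa2 libraries. Of the 8 leukocyte markers, 1 was at 0 in this library and 5 and 4 in the LPCX and ESRP2 libraries, and the 10 class II genes summed to 9.71 TPM against 2.90 and 3.49 TPM. Their part in the levels of IFI16 and PSMB9 was not tested.

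Because ESRP proteins act on splicing, the transcripts of the list were read too. It held 103 transcripts, and 21 of the 45 genes had 1 transcript in the table. Shares could be modelled for 15 transcripts of 9 genes, those with 5 TPM in every library and a transcript at 10% or more. Between the lines, 5 of the 15 were called in limma on log2 odds, 2 of STAT2 and 3 of IFIT3, against 17.3% of 12965 transcripts. No transcript of the list was called for ESRP1 (none at an unadjusted p under 0.05), for ESRP2 (2 at an unadjusted p under 0.05) or for ESRP2 against ESRP1 (2 at an unadjusted p under 0.05). Over all transcripts these comparisons gave 1 (0.00771%), 0 and 0 calls in limma, with 740, 824 and 582 at an unadjusted p under 0.05.

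Transcripts with different first exons led IFIT3 in the 2 lines. NM_001549 begins with an exon at chr10:89327894-89328078 and NM_001031683 with one at chr10:89332484-89332627 (GENCODE release 29, GRCh38), next to the upstream and downstream stretches of IFIT3 given with the start sites, and both continue with the exon at chr10:89338661-89340971. NM_001031683 took 32.8, 26.2 and 23.7% of IFIT3 in MIA-PaCa2, against 69.8, 63.1 and 65% in PANC-1, so the downstream start led in PANC-1 (log2 odds difference 2.19, limma adjusted p = 0.007). NM_001549 took 55, 55.5 and 64.4% and 28.8, 35.3 and 33.7%, the reverse (log2 odds difference -1.48, limma adjusted p = 0.016). In TPM both lay higher in every PANC-1 library: NM_001031683 stood at 2.43, 2.3 and 2.09 TPM in MIA-PaCa2 and 116, 129 and 142 TPM in PANC-1, and NM_001549 at 4.06, 4.88 and 5.68 and 47.7, 72.1 and 73.4 TPM. The first exons hold 5 coding bases each, and the rest of the coding sequence is in the shared exon. NM_001289759, at 12.1, 13.3 and 11.9% and 0.457, 1.41 and 1.18%, pairs with the same GENCODE transcript as NM_001031683, and its share was lower in PANC-1 (log2 odds difference -4.02, limma adjusted p = 0.013).

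STAT2 had 2 transcripts, NM_005419 and NM_198332, which differ by 12 coding bases at an exon border (chr12:56355792-56355803, minus strand, present in NM_005419) and in the ends of the first and last exons. The share of NM_198332 in STAT2 was 34.7, 29.3 and 16.4% in the MIA-PaCa2 libraries and 22.6, 15.7 and 3.32% in those of PANC-1. The share was lowest in the ESRP2 library and highest in the LPCX library of each line, and the lines overlapped (line difference in log2 odds -1.31, limma adjusted p = 0.043). With ESRP2 it was lower by 10 percentage points or more in both lines, which the 2 transcripts of STAT2 alone did among the 15, as mirror images of each other, against 2.4% of all transcripts; with ESRP1 none of the 15 did, against 1.82%. The estimate for ESRP2 against LPCX was -1.86 (SE 0.36) in log2 odds, with a limma adjusted p of 0.55, so it was not called. In PANC-1 ESRP2 the transcript stood at 0.699 TPM, and STAT2 as a whole at 21 TPM.

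**Figure D5:**
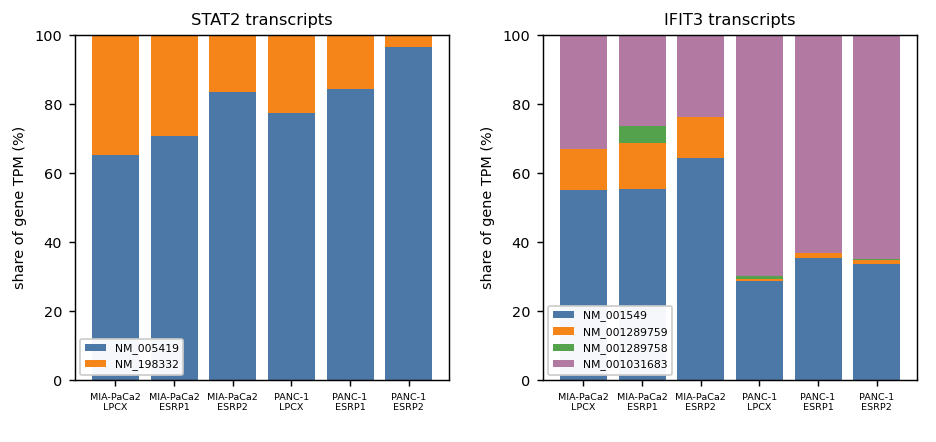
Share of the TPM of STAT2 (left) and IFIT3 (right) taken by each transcript in the 6 libraries, in percent, as stacked bars that start at 0. NM_198332 of STAT2 runs from 34.7% to 16.4% across the MIA-PaCa2 libraries and from 22.6% to 3.32% across the PANC-1 libraries, and NM_001031683 leads IFIT3 in PANC-1.

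The number of called transcripts rests on single libraries: without any 1 library, 1 to 2 of the 5 were called, and each of the 6 libraries had this effect. IRF7 was under the level needed for the model in MIA-PaCa2. Its transcript NM_001572 was listed at 0 in the 3 MIA-PaCa2 libraries and took 59.2, 61.6 and 59.8% in PANC-1, where the gene was expressed. Shares come from the division of reads between overlapping transcripts by the authors' quantification, and junction reads were not used here.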

How the data were processed

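RNA was measured in 6 libraries of 2 established cell lines. Per the labels' protocols, mRNA libraries were made with a TruSeq kit from 2 ug of total RNA. Per the submitters' processing notes, Salmon and GRCh38 were used, with versions not stated. The table that the authors deposited holds TPM, a length-scaled signal, for RefSeq transcripts in 67792 lines, of which 8664 repeat another line and were dropped, 66 of them lines of the 45 genes. After this, 59128 transcripts in 27408 genes remained and each library summed to 1000000. TPM keep no read depth, so no counting interval is given. Columns were matched to samples by name; the MIA-PaCa2 columns of ESRP2 (headed ESRP12) and LPCX (line spelled differently) were matched by elimination, and the endings N and T of the headers are not explained.

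The line and construct comparisons used limma 3.58.1 (R 4.3.3), fitted with a variance trend to 11829 genes as log2 of TPM plus a pseudocount of 1, with line and construct as terms and 2 residual degrees of freedom. Adjustment was by Benjamini-Hochberg over all genes at 0.05, two-sided. A fold change on this scale understates the change of low genes. Within a line, log2 ratios have no test and were counted from 2-fold. Transcript shares were fitted as log2 odds with a pseudocount of 0.5 TPM. The functions were tested on simulated data. Alternatives were other pseudocounts, filters and scaling, coding transcripts only, no trend, no cell line block and leaving out each library. All 45 genes are named, with values in every library for those that reached 5 TPM in some library. The genes and lists were chosen with earlier results of these data known. Some genes of the wider lists are counted but not reported here by name.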

Additional observations from a re-analysis of the deposited data

Results flagged for a closer look

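For 5 of the 36 genes with 5 TPM in some library, both ESRP libraries of MIA-PaCa2 lay on one side of their LPCX library and both of PANC-1 on the other. The share of all genes with this pattern was not counted, so the 5 are not shown to exceed what other genes give. The value compared is the mean log2 ratio to LPCX in PANC-1 minus that in MIA-PaCa2, and the difference was not tested for any of the 5. IRF9, the DNA-binding subunit of ISGF3, lay above LPCX in MIA-PaCa2 (0.094 with ESRP1 and 0.35 with ESRP2) and below it in PANC-1 (-0.15 and -0.05), a difference of -0.32. OAS2 showed the same order (MIA-PaCa2 0.68 and 0.42, PANC-1 -0.06 and -0.29), with a difference of -0.73, at 1.49 TPM or less in MIA-PaCa2. IFIT2 lay below LPCX in MIA-PaCa2 (-0.076 and -0.19) and above it in PANC-1 (0.40 and 0.42), a difference of 0.54. ISG20 (-0.046 and -0.43 against 0.14 and 0.041) and PARP9 (-0.031 and -0.20 against 0.24 and 0.27) had the same order as IFIT2, with differences of 0.33 and 0.37.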

How the results depend on the processing

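The line comparison kept its counts, 31 to 32 genes higher and 3 lower, when any 1 library was left out. Requiring 4-fold as well, an alternative chosen after seeing the data, left 20 higher. Of the single-gene line differences under all alternatives, 497 kept direction and call, 4 lost the call (all IRF9), and 3 changed sign: IFIT5, not called, gave -0.040 with median ratio scaling and -0.15 to 0.12 without 1 library, -0.15 without either ESRP2 library. The labels number no replicates, so the block left out was the other term of the model. Without the construct as a block, 32 genes were higher in PANC-1 and 3 lower. Without the line as a block, ESRP1, ESRP2 and ESRP2 against ESRP1 gave 0 calls each over all genes. Main counts over all genes were 1, 2 and 1. For ESRP2 the count became 0 with a pseudocount of 0.1 TPM, a filter of 1 TPM, no filter or coding transcripts only, and 1 with a pseudocount of 5 TPM or no trend. Leaving out 1 library gave 0 to 30 calls for ESRP2 (30 without MIA-PaCa2 ESRP2, 13 without PANC-1 ESRP2) and 1 to 23 for ESRP2 against ESRP1 (9 and 23 without these libraries). No gene of the list was called for a construct under any alternative run. Within lines, 1 gene was higher with ESRP1 in MIA-PaCa2 at a pseudocount of 0.1 TPM and at 1.5-fold, 1 with ESRP2 in MIA-PaCa2 at a filter of 1 TPM and at 1.5-fold, and 1 with ESRP2 in PANC-1 at a filter of 1 TPM. At the filter of 1 TPM the gene was IFI27 in both lines. Called transcripts between the lines numbered 3 with a pseudocount of 0.1 TPM, 2 with a gene minimum of 10 TPM, and 1 to 2 without any 1 library. The cause of these changes was not tested, and with unknown depth the noise of genes at a few TPM cannot be given.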

Other observations

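Some interferon-induced genes under the 5 TPM filter had library values that the comparisons did not use. IFI27, a mitochondrial and nuclear protein strongly induced by interferon alpha in other tissues, was listed at 0, 0.286 and 1.02 TPM in MIA-PaCa2 and 0.317, 0.712 and 1.73 TPM in PANC-1, highest in the ESRP2 library of each line. OAS1 stood at 0.816, 1.17 and 1.22 TPM in MIA-PaCa2, with LPCX lowest, and 3.02, 1.77 and 1.49 TPM in PANC-1, with LPCX highest. HLA-F, a class I gene of restricted expression, stood at 0.226, 0.555 and 0.221 TPM and 3.36, 4.26 and 5.43 TPM, and RTP4, a chaperone of receptors, at 0.112, 0 and 0.11 TPM and 2.22, 3.42 and 1.2 TPM. These values have no replicates within a line and no known depth.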
